A study of Mus musculus with 28 samples.

Results

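The Notch genes described here, 10 in all, were followed through 19 RNA libraries of sorted mouse lung epithelial cells in which the Yap pathway had been switched on or Yap itself deleted. They comprised the ligands Dll1, Dll4, Jag1 and Jag2, the receptors Notch1, Notch2 and Notch3, the fringe enzymes Lfng and Mfng, and the feedback gene Nrarp. The 10 genes were taken by name from the 23478 gene rows of each count table, and all 10 passed the filter on low counts in both tables. Cells had been depleted of blood, stromal and endothelial cells (by CD31, the product of Pecam1, among other antigens) and then selected for CD326, the EPCAM protein. Mice received the inducer on postnatal day 3, and lungs were taken on day 14. The Yap active group (Stk3flox/flox/Stk4flox/flox with SftpcCreert2, 6 RNA libraries) lacked Stk3 and Stk4, kinases that hold Yap inactive, and its controls carried the same floxed alleles without Cre (4 libraries). The Yap deleted group (Yapflox/flox with SftpcCreert2, 5 libraries) was set against Yapflox/flox cells without Cre (4 libraries). Cre is driven by Sftpc, a gene of alveolar type 2 (AT2) cells, while the sort selects EPCAM-positive cells in general. Accessible chromatin had been measured by ATAC-seq in 9 further libraries of the 4 groups.

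Notch receptors are cut when a ligand on a neighbouring cell binds them, and the released intracellular part joins the DNA-binding protein Rbpj to switch on target genes. Fringe enzymes add sugars to the receptors and so bias them between Delta ligands (Dll1, Dll4) and Jagged ligands (Jag1, Jag2), while Nrarp is induced by Notch and dampens the intracellular complex. In the lung the pathway acts in airway secretory cells and in alveolar formation, and Dll4 and Notch4 are well known from endothelial cells and Notch3 from mural cells.

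Libraries held 31947748 to 43544559 counts. AT2 genes were high in all of them (Sftpc 2064 CPM or more, where CPM is the depth-scaled count after TMM scaling within a table), and club-cell genes were present too (summed 3437 to 41342 CPM), so the libraries held RNA of alveolar and airway epithelium. Fibroblast genes were present in all of them as well (summed 891 to 7011 CPM), although stromal cells had been depleted. Stk3 held 30.6 to 35.4 CPM in Yap active libraries 2 to 6, against 50.2 to 54.6 CPM in active controls 1 to 3, but it held 49.5 CPM in Yap active 1 and 34.0 CPM in active control 4. Stk4 held 78.5 to 125 CPM in Yap active libraries, against 103 to 120 CPM in active controls. Yap1 held 78.3 to 142 CPM in Yap deleted libraries, against 215, 168 and 187 CPM in deleted controls 1, 3 and 4 and 119 CPM in deleted control 2, which lay among the Yap deleted libraries. Esr1, part of which is carried by CreERT2, went against the label in Yap active 1 (1.97 CPM), active control 2 (160.0 CPM) and again deleted control 2 (87.1 CPM). Deleted controls 1 and 2 held 322 and 245 CPM of Pecam1, and there the 19 endothelial markers summed to 3665 and 2960 CPM, against 238 to 349 CPM in the other 7 libraries of that table. The Yap active table fell into a pair of library sets when clustered over all genes other than the Notch genes and Pecam1, a split made after the data were seen. Set A held Yap active 2 to 6 and control 4 (Pecam1 0.791 to 1.71 CPM), and set B held Yap active 1 and controls 1 to 3 (Pecam1 4.66 to 41.6 CPM). AT2 genes summed to 78837 to 131992 CPM in set A and 36788 to 55560 CPM in set B, and club-cell genes to 10967 to 18991 CPM in set A and 3437 to 5014 CPM in set B. Fibroblast genes summed to 891 to 3589 CPM in set A and 3156 to 6113 CPM in set B. In bulk samples fewer cells of a type and less RNA per cell cannot be told apart. Whether libraries came from separate animals is not labelled, so p-values measure the spread between these libraries.

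In the Yap active line Nrarp was the member whose libraries stood farthest above the controls, with Notch1 and Jag2 next and Mfng and Dll1 on the other side. None of these differences passed the test across all genes. edgeR's quasi-likelihood test with Benjamini-Hochberg adjustment called 0 of the 10 members at adjusted p under 0.05, as it called 0 of 15685 genes (0%), with 1981 genes at an unadjusted p under 0.05. DESeq2 called none of the members either (18 genes, 0.115% of those tested), while limma-voom with sample weights called Notch1, Jag2 and Nrarp up and Dll1 and Mfng down, in a fit that called 56.6% of all genes. The median log2 fold change was 0.15 over the members and −0.01 over all genes tested. Since the members were chosen with earlier results of these data known, their median is a description and not a test. No member had groups that did not overlap, against a background of 0.465% of genes with every Yap active library higher and 0.478% with every one lower.

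**Figure D1:**
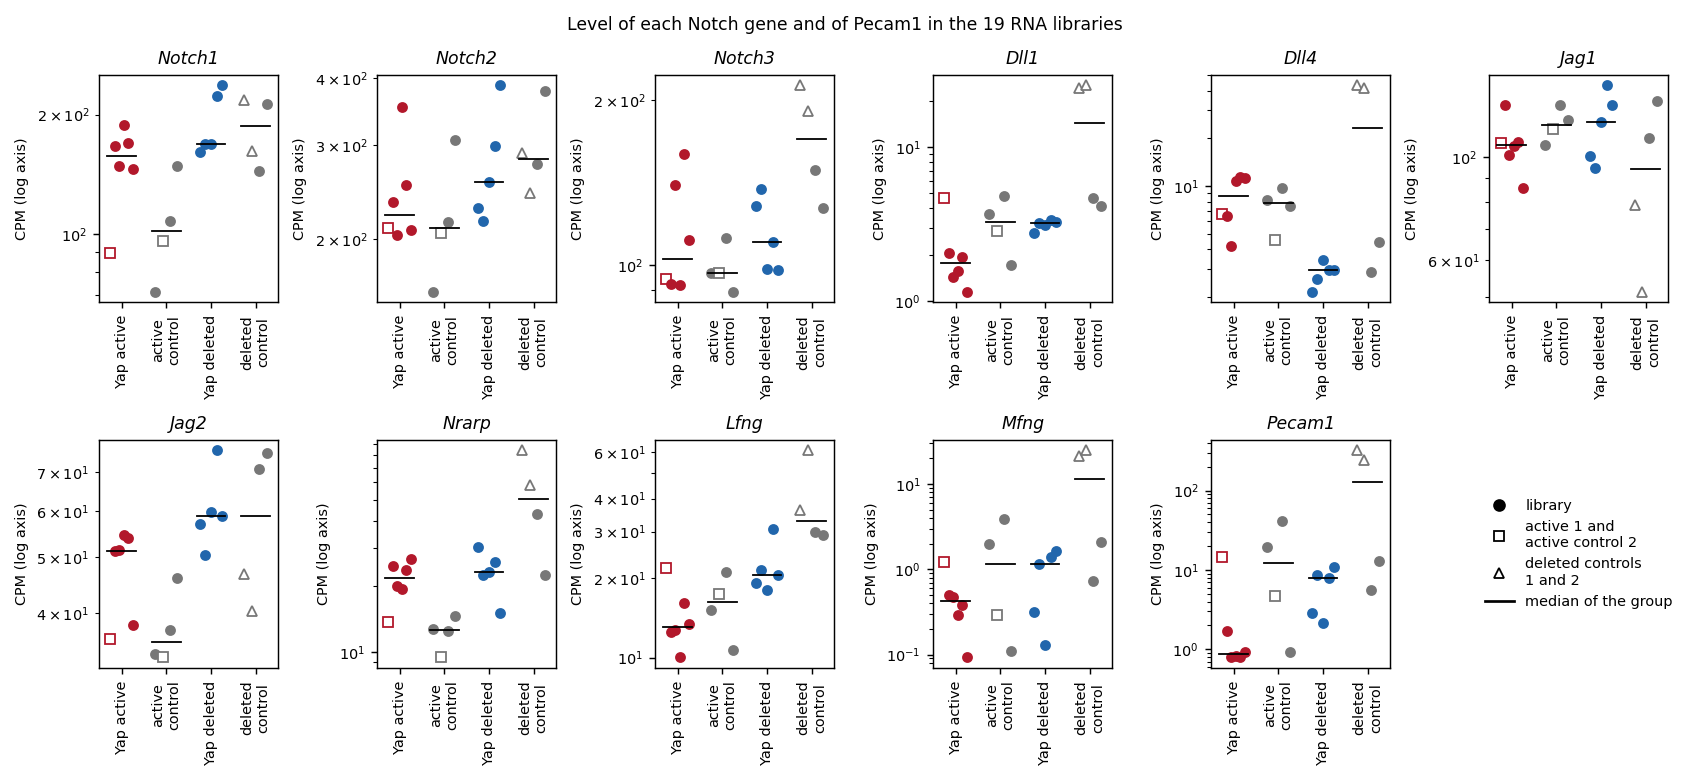
Level of each Notch gene and of Pecam1 in CPM (log axis) in each of the 19 RNA libraries, by group, with bars at group medians; open symbols mark libraries whose Esr1 goes against the label or whose Pecam1 is high. Nrarp of Yap active libraries sits mostly above the active controls (medians 21.9 and 12.6 CPM), and Dll1, Dll4 and Mfng are high in deleted controls 1 and 2 as Pecam1 is.

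Nrarp held 13.7, 24.7, 20.2, 19.4, 23.7 and 26.7 CPM in Yap active libraries 1 to 6, against 12.7, 9.45, 12.6 and 14.7 CPM in active controls 1 to 4. Of the 6 Yap active libraries, 5 were above every control, and Yap active 1, the library without Esr1 signal, lay among the controls. This gave a log2 fold change of 0.79 ± 0.20 SE (adjusted p = 0.366 by edgeR's quasi-likelihood test). Within each library set Nrarp was higher in every Yap active library than in every control, and it was the only 1 of the 10 members for which that held, against 3.14% of all genes. None of the members was lower in that way in both sets, against 2.46% of genes. In set A the Nrarp result rests on 1 control, control 4 (14.7 CPM). Stk3 of control 4 (34.0 CPM) lay among the Yap active libraries of that set (30.6 to 35.4 CPM), while its Esr1 went with its label (0.964 CPM). In set B the result rests on Yap active 1 alone (13.7 CPM), whose Esr1 (1.97 CPM) and Stk3 (49.5 CPM) go against its label. The control of set B with Esr1 signal, control 2, held the lowest Nrarp (9.45 CPM). If labels followed Esr1 in set B, the library with Cre would lie below the others there. With the set as a covariate the log2 fold change was 0.46 ± 0.18 SE, and with log2 Pecam1 CPM as a covariate it was 0.59 ± 0.22 SE (edgeR adjusted p = 0.99996 and 0.99986). Without Yap active 1 and active control 2 it was 0.78 ± 0.15 SE (edgeR adjusted p = 0.122).

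The Nrarp gene starts at the edge of a region that the authors list as opened in Yap active cells, which is why its promoter is shown. The region lies at chr2:25180771-25181993 (mm10), over the single exon of the gene, and has the score 24.85 in the authors' list. The sequence is the RefSeq promoter window of GRCm38.p6 at chr2:25180508-25180807, plus strand, 5′ to 3′, from 250 bases before to 50 after the start, with the 37 bases that lie inside the opened region in capitals.
Nrarp: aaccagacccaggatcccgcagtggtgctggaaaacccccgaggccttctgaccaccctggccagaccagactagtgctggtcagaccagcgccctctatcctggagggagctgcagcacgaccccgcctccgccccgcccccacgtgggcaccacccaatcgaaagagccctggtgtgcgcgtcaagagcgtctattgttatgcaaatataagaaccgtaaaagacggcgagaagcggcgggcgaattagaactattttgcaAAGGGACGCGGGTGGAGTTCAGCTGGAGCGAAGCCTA
Neither the Rbpj core TGGGAA nor the TEAD core GGAATG (TEAD proteins are the DNA-binding partners of Yap) occurs on either strand of this window.

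Among the ligands, Jag2 came nearest to the test in the Yap active line. Jag2 ran from 36.1 to 54.6 CPM in Yap active libraries (median 51.2), against 34.0, 33.5, 37.3 and 46.0 CPM in active controls 1 to 4. Of the 6 Yap active libraries 4 exceeded all controls, and the highest control was the one in set A. Its log2 fold change was 0.33 ± 0.16 SE (edgeR adjusted p = 0.366) and 0.08 ± 0.13 SE with the set as a covariate. Jag1 ran from 85.9 to 130 CPM (median 106) in Yap active libraries, against 106, 115, 130 and 120 CPM in controls, with overlapping groups (log2 fold change −0.15 ± 0.12 SE, edgeR adjusted p = 0.465).

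The Delta ligands were at low counts in this table, 37 to 217 reads a library for Dll1. Dll1 held 4.70, 2.04, 1.44, 1.57, 1.94 and 1.14 CPM in Yap active libraries 1 to 6, against 3.68, 2.85, 4.81 and 1.71 CPM in controls 1 to 4. Its higher values were those of set B, on both sides of the comparison. Over all libraries Dll1 had a log2 fold change of −0.61 ± 0.42 SE (edgeR adjusted p = 0.421), and it was 0.12 ± 0.28 SE with the set as a covariate and 0.10 ± 0.25 SE with Pecam1 as a covariate, so the direction turned in both. Dll4, the Delta ligand of sprouting vessels, ran from 4.20 to 11.5 CPM (median 8.71) in Yap active libraries, against 8.21, 4.56, 9.74 and 7.52 CPM in controls. The groups overlapped across nearly their whole range (0.17 ± 0.31 SE, edgeR adjusted p = 0.745).

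Of the receptors, Notch1 followed the library sets. It held 167, 148, 188, 169 and 146 CPM in Yap active libraries 2 to 6 and 148 CPM in control 4, all of set A, against 89.5 CPM in Yap active 1 and 71.3, 95.9 and 108 CPM in controls 1 to 3, all of set B. The sets did not overlap for Notch1, while within each set the Yap active and control values overlapped or interleaved. Over all libraries Notch1 had a log2 fold change of 0.52 ± 0.23 SE (edgeR adjusted p = 0.366), 0.06 ± 0.15 SE with the set as a covariate and 0.16 ± 0.19 SE with Pecam1 as a covariate. Notch2 ran from 204 to 353 CPM (median 222) in Yap active libraries, against 159, 205, 215 and 307 CPM in controls (0.14 ± 0.21 SE, edgeR adjusted p = 0.700). Notch3 ran from 92.2 to 159 CPM (median 103), against 96.8, 96.7, 112 and 89.4 CPM in controls (0.22 ± 0.18 SE, edgeR adjusted p = 0.473). Both receptors overlapped between the groups, and only 1 Yap active library for Notch2 and 2 for Notch3 exceeded every control.

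**Figure D2:**
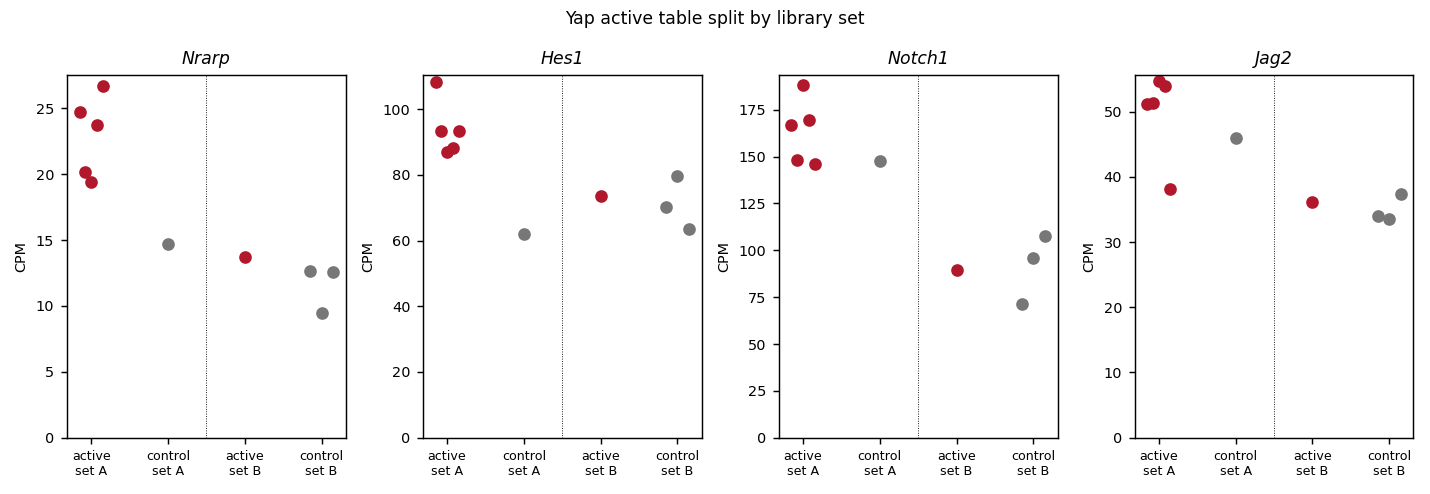
CPM of Nrarp, Hes1, Notch1 and Jag2 in the Yap active libraries (red) and their controls (grey), split by library set, on axes from 0; each point is a library. Nrarp of libraries labelled Yap active lies above the controls of the same set, in set B with only Yap active 1 (13.7 CPM), whose Esr1 goes against its label, and Notch1 separates set A from set B.

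Both fringe enzymes had negative log2 fold changes over all libraries of the Yap active line and positive ones with Pecam1 or the library set as a covariate. Lfng held 21.9, 12.5, 12.8, 10.01, 16.1 and 13.4 CPM in Yap active libraries 1 to 6, against 15.1, 17.3, 21.0 and 10.7 CPM in controls 1 to 4. The lowest 5 of the 10 libraries were of set A, control 4 among them. Its log2 fold change of −0.15 ± 0.24 SE (edgeR adjusted p = 0.707) turned to 0.28 ± 0.18 SE with the set as a covariate and to 0.22 ± 0.19 SE with Pecam1 as a covariate. Mfng ran from 0.0926 to 1.21 CPM (median 0.427) in Yap active libraries, against 2.00, 0.288, 3.85 and 0.110 CPM in controls, which were 3 to 167 reads a library. The Mfng log2 fold change of −1.65 ± 0.86 SE (edgeR adjusted p = 0.366) turned to 0.83 ± 0.69 SE with Pecam1 as a covariate and to 0.18 ± 0.99 SE with the set.

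Lfng was the one member whose promoter window held the Rbpj core. The window is the RefSeq one of GRCm38.p6 at chr5:140607091-140607390, plus strand, 5′ to 3′, with the core TGGGAA in capitals, once on the minus strand (read as TTCCCA, starting 135 bases before the gene's start) and once on the plus strand (108 bases before it).
Lfng: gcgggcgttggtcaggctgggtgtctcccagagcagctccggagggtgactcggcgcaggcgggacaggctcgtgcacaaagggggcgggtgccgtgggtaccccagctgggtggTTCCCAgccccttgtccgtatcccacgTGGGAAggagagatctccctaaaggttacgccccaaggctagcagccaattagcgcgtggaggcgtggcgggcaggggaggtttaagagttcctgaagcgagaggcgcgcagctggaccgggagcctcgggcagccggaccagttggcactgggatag
The second match also spells the longer form GTGGGAA, which contains the core. The core was found on either strand in 25.6% of 32851 promoter windows of the same length, and the longer form in 6.38%. The TEAD core GGAATG, present in 14.7% of windows, was found in 1 member, Notch1, with 2 matches at 233 and 216 bases before the start. Windows were at hand for 9 of the 10 members, and Mfng had none. A match describes letters only.

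In the Yap deleted line 6 members had lower means than the controls by a log2 fold change of 0.57 or more, namely Mfng, Dll4, Dll1, Nrarp, Lfng and Notch3. Without deleted controls 1 and 2, the libraries with Pecam1 at 322 and 245 CPM, the log2 fold changes were −0.66 for Mfng, −0.41 for Dll4 and −0.52 for Dll1, a small part of those with all libraries, and −0.51 for Nrarp, −0.46 for Lfng and −0.30 for Notch3. edgeR's quasi-likelihood test called none of the 10 members (1 gene of 15818, 0.00632%, with 2422 at an unadjusted p under 0.05). DESeq2 called all 6 down (adjusted p = 0.00177 to 0.0444), in a fit that called 5.01% of all genes, and limma-voom called 0 genes (0%). The median log2 fold change was −0.70 over the members, against 0.01 over all genes tested, and −0.36 over the members without deleted controls 1 and 2. Here too the choice of members with earlier results known makes their median a description only. Dll1 alone had groups that did not overlap, with every Yap deleted library lower, against 1.25% of all genes lower and 2.64% higher in that way.

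Dll1 held 2.76, 3.19, 3.13, 3.35 and 3.24 CPM in Yap deleted libraries 1 to 5, against 24.3, 25.4, 4.64 and 4.13 CPM in deleted controls 1 to 4. The Yap deleted libraries lay within a narrow band below all 4 controls, and the first 2 controls stood far above the others. Over all libraries the log2 fold change was −2.22 ± 0.55 SE (edgeR adjusted p = 0.247). Against controls 3 and 4 alone the groups still did not overlap (4.71% of all genes were lower and 6.48% higher in that way), and the log2 fold change was −0.52 ± 0.19 SE (edgeR adjusted p = 0.730). With Pecam1 as a covariate it was −0.43 ± 0.34 SE (edgeR adjusted p = 0.928).

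Dll4 and Mfng had the larger log2 fold changes, and both overlapped once controls 3 and 4 were considered. Dll4 held 2.15, 2.61, 3.43, 2.94 and 2.96 CPM in Yap deleted libraries, against 43.4, 41.8, 2.86 and 4.47 CPM in deleted controls. The log2 fold change of −3.04 ± 0.76 SE (edgeR adjusted p = 0.247) was −0.41 ± 0.28 SE without controls 1 and 2 and −0.18 ± 0.53 SE with Pecam1 as a covariate. Mfng held 0.317, 1.14, 0.128, 1.38 and 1.64 CPM in Yap deleted libraries, against 21.1, 25.01, 0.736 and 2.09 CPM in deleted controls. Its log2 fold change of −3.73 ± 1.08 SE (edgeR adjusted p = 0.247) was −0.66 ± 0.88 SE without controls 1 and 2 and −0.05 ± 0.40 SE with Pecam1 as a covariate. Dll4 shares 414 bases with the lncRNA gene Gm14207, which has its own row, and no source used here gives the strand setting of the counting, so reads of the pair may be mixed.

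Nrarp held 30.2, 22.5, 23.3, 25.9 and 15.1 CPM in Yap deleted libraries, against 84.4, 58.3, 42.8 and 22.5 CPM in deleted controls. Controls 1 to 3 exceeded every Yap deleted library, and control 4 lay among them. With all libraries the log2 fold change was −1.15 ± 0.34 SE (edgeR adjusted p = 0.247), −0.51 ± 0.31 SE without controls 1 and 2 and −0.60 ± 0.41 SE with Pecam1 as a covariate. Lfng held 19.1, 21.5, 18.1, 30.7 and 20.5 CPM in Yap deleted libraries, against 36.1, 61.0, 29.8 and 29.2 CPM in deleted controls. Of the 5 Yap deleted libraries 4 were below every control, and Yap deleted 4 was above controls 3 and 4. The log2 fold change of −0.83 ± 0.25 SE (edgeR adjusted p = 0.247) was −0.46 ± 0.20 SE without controls 1 and 2.

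**Figure D3:**
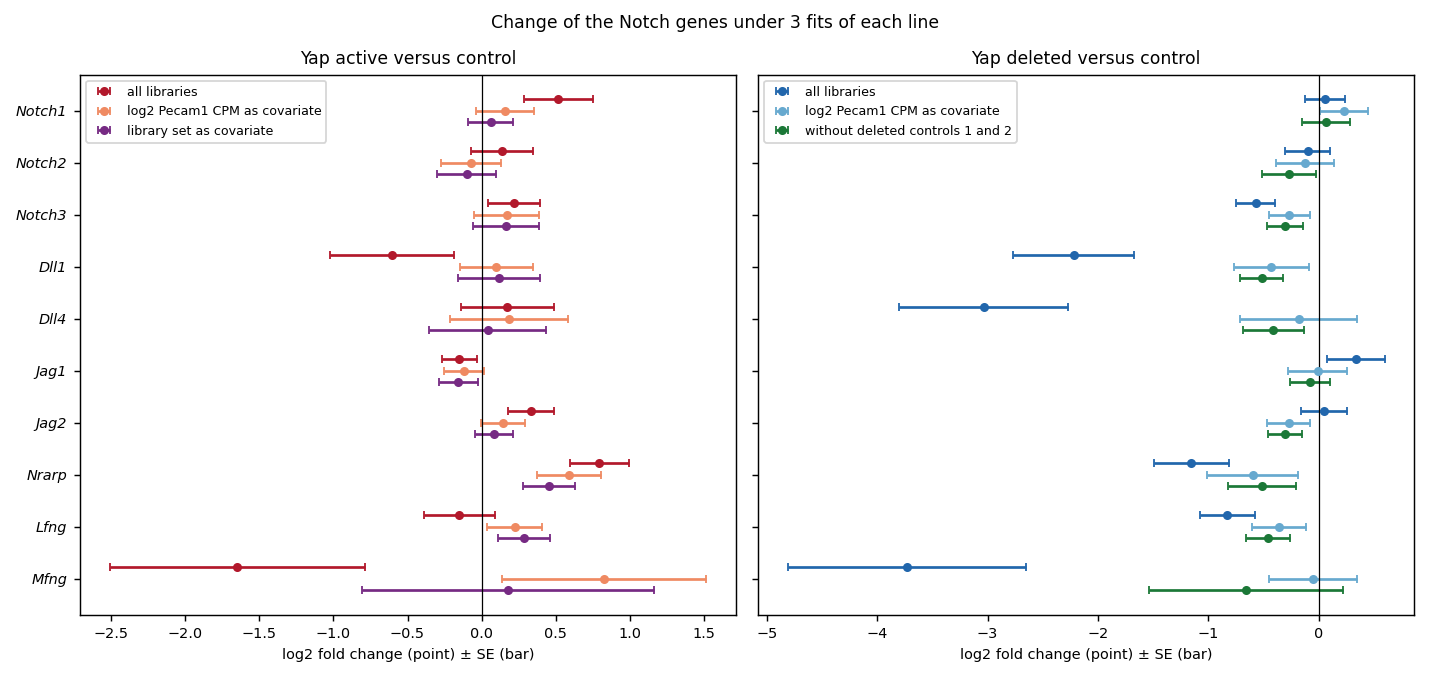
log2 fold change (points) with its SE (bars) of each Notch gene in the Yap active and the Yap deleted line under 3 fits of each line. Mfng, Dll4 and Dll1 move from −3.73, −3.04 and −2.22 with all deleted libraries toward 0 once Pecam1 is a covariate, and in the active line Nrarp stays above 0 in all 3 fits.

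The receptors and Jagged ligands had smaller log2 fold changes. Notch3 held 128, 138, 98.5, 110 and 98.0 CPM in Yap deleted libraries, against 213, 191, 149 and 127 CPM in deleted controls. Of the 5 Yap deleted libraries 3 were below every control (log2 fold change −0.57 ± 0.18 SE, edgeR adjusted p = 0.248), and the value was −0.30 ± 0.16 SE without controls 1 and 2. Notch1 held 161, 168, 169, 222 and 238 CPM, against 218, 162, 144.5 and 213 CPM in deleted controls (0.06 ± 0.18 SE, edgeR adjusted p = 0.886). Notch2 held 228, 216, 256, 299 and 388 CPM, against 290, 244, 276 and 378 CPM (−0.10 ± 0.20 SE, edgeR adjusted p = 0.815), so for Notch1 and Notch2 the groups covered the same range. Jag1 held 101, 94.6, 119, 143 and 129 CPM in Yap deleted libraries, against 78.8, 51.2, 110 and 132 CPM in deleted controls, and here controls 1 and 2 were the lowest of all. The Jag1 log2 fold change of 0.34 ± 0.26 SE (edgeR adjusted p = 0.534) turned to −0.08 ± 0.18 SE without them. Jag2 likewise was lowest in controls 1 and 2, with 57.0, 50.5, 59.8, 76.5 and 58.8 CPM in Yap deleted libraries, against 46.7, 40.3, 70.9 and 75.7 CPM in deleted controls. Its log2 fold change was 0.05 ± 0.21 SE (edgeR adjusted p = 0.910), and −0.31 ± 0.16 SE without controls 1 and 2.

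Both lines were then set against each other in a fit of all 19 libraries, which asks whether a gene's change in the Yap active line differed from that in the Yap deleted line. Nrarp had the largest ratio of difference to error among the members, 1.94 ± 0.40 SE on the log2 scale (adjusted p = 0.520 by edgeR's quasi-likelihood test). Its mean was above that of its controls in the active line and below it in the deleted line. The means of the groups with Cre were close, 21.4 CPM in Yap active and 23.4 CPM in Yap deleted libraries. Those of their controls were 12.3 and 52.0 CPM, so the difference lay mainly between the controls of the lines. edgeR called 0 of 16308 genes (0%, 1055 at an unadjusted p under 0.05), so none of the members. DESeq2 called Nrarp and Dll4 (adjusted p = 0.0160 and 0.0490) among 17 genes (0.104%), and limma-voom called Nrarp (adjusted p = 0.0419) among 21 genes (0.129%). Without deleted control 4, in which Nrarp was the lowest of the deleted controls, edgeR called 3 of 16514 genes, Nrarp among them (2.19 ± 0.33 SE, adjusted p = 0.0377). Leaving out any other single library, edgeR called none of the members. Without deleted controls 1 and 2 the Nrarp difference was 1.28 ± 0.36 SE (edgeR adjusted p = 0.505). The Dll4 difference was 3.20 ± 0.83 SE with all libraries (edgeR adjusted p = 0.695) and 0.55 ± 0.46 SE without those controls. Notch3 differed by 0.78 ± 0.26 SE (edgeR adjusted p = 0.732), and the other 7 members had differences from −0.49 to 2.07 with edgeR adjusted p of 0.763 to 0.906.

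The members differed in how they followed Pecam1 from library to library. In deleted controls 1 and 2 together Mfng held 0.0813 CPM per CPM of Pecam1, Dll1 0.0875, Dll4 0.150, Lfng 0.171 and Nrarp 0.251. If the Pecam1 of every other library brought the members along at these ratios, the amount brought would come to a median of 74.5% of the Mfng level in the Yap active table and 61.0% in the other 7 libraries of the Yap deleted table. For Dll4 the medians were 3.39% and 40.2%, for Dll1 7.22% and 20.6%, for Nrarp 1.67% and 7.65%, and for Lfng 1.92% and 4.39%. Single libraries of the Yap active table lay far from these medians. In active control 3 the share reached 83.4% for Nrarp, 75.7% for Dll1, 64.2% for Dll4 and 33.9% for Lfng. For Nrarp it was 38.9% in active control 1, 12.4% in active control 2, 1.60% in active control 4 and 26.8% in Yap active 1. Per CPM of Pecam1, Mfng ran from 0.0602 to 0.593 over these 17 libraries, whereas Nrarp ran from 0.301 to 29.97.

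With the same ratio in every library these shares would be upper bounds, since the ratio counts all of a member's RNA in deleted controls 1 and 2 as coming with Pecam1. Yap active libraries 2 to 6 held 19.4 to 26.7 CPM of Nrarp at 0.791 to 1.71 CPM of Pecam1, so Nrarp RNA was also present where Pecam1 was nearly absent. For that reason no level with the share subtracted is given. The ratio of a gene to Pecam1 was not the same in every library even for endothelial markers: Cdh5 ran from 0.382 to 1.77 per CPM of Pecam1 over the 17 libraries, and Kdr, which held 0.728 and 0.696 in deleted controls 1 and 2, ran from 1.95 to 39.3. Deleted controls 1 and 2 stood apart in other cell types too. Their lymphocyte markers summed to 69.7 and 243 CPM, against 13.1 to 22.5 CPM in the rest of that table. Ptprc, a gene of white blood cells, held 57.8 and 189 CPM, against at most 19.9 CPM. The myeloid list, which holds Ptprc, summed to 1045 and 1983 CPM, within the 449 to 6169 CPM of the rest. Of its genes Lyz1 lay within the range in both (818 and 890 CPM, against 380 to 6008 CPM). Csf1r and Cd68 lay within it in control 1 only, and the remaining myeloid genes were higher in both. The mural and smooth muscle list as a whole summed to 781 and 908 CPM, against 555 to 845 CPM, but within it the pericyte genes Pdgfrb and Cspg4, chosen after their values were seen, were higher, as Notch3 was. Pdgfrb held 413 and 350 CPM, against 69.2 to 195 CPM, and Cspg4 held 48.0 and 59.7 CPM, against 20.04 to 28.7 CPM. Of the rest of that list, Rgs5 was higher too (9.81 and 6.70 CPM, against 2.22 to 3.07 CPM). Acta2 (94.9 and 173 CPM, against 143 to 306 CPM) and Tagln (115 and 206 CPM, against 185 to 302 CPM) were lower in control 1 and within the range in control 2. Myh11 lay within the range in both (100 and 112 CPM, against 70.2 to 180 CPM). Fibroblast sums in deleted controls 1 and 2 were 5797 and 7011 CPM, against 1768 to 5724 CPM in the rest of that table. Some epithelial lists were lower there, as Jag1 and Jag2 were. Pan-epithelial sums were 665 and 497 CPM, against 1010 to 1335 CPM, and AT2 sums 28343 and 24909 CPM, against 43406 CPM or more. Ciliated-cell sums were 261 and 199 CPM, against 872 to 1556 CPM. Other epithelial lists did not follow. Club-cell sums were 18377 and 7812 CPM, against 10425 to 41342 CPM, so only control 2 was below the rest. Sums of alveolar type 1 genes were 2660 and 2105 CPM, within the 1760 to 8552 CPM of the rest. The part of these cell types in the member values was not tested.

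**Figure D4:**
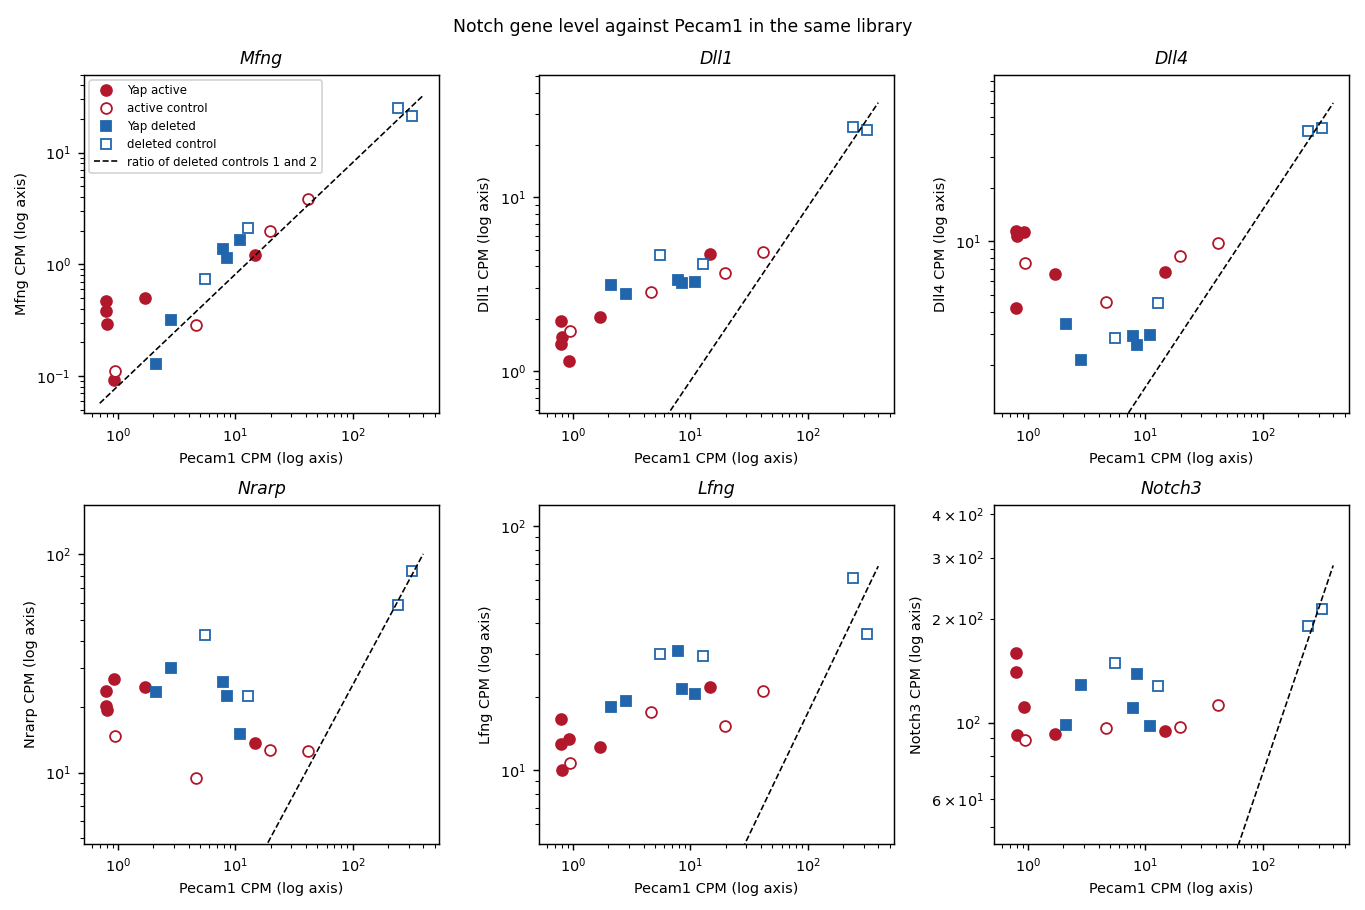
CPM of 6 Notch genes against Pecam1 CPM in the same library (both axes log), with each point a library and a dashed line at the members' ratio to Pecam1 in deleted controls 1 and 2. Mfng runs close to the line over most of its range, with 4 Yap active libraries above it, while Lfng and Notch3 of the other libraries lie far above it.

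The genes whose level followed each member most closely were named by Pearson correlation of log2 (CPM + 0.5), centred within each table, over 14306 genes. The libraries share controls and cell composition, so these values are descriptions. Mfng was closest to Gimap1, Plvap and Ccm2l (r = 0.980, 0.979 and 0.978), Dll1 to Podxl, Emcn and Fbxw7 (0.984, 0.978 and 0.975), and Dll4 to Thsd1, 1700020L24Rik and Egfl7 (0.949, 0.940 and 0.938). Plvap, Emcn and Egfl7 were on the endothelial marker list. Without deleted controls 1 and 2 Dll4 no longer followed any gene above 0.745, and its correlation with Pecam1 was 0.04 over these 17 libraries, against 0.70 over all 19. Mfng kept a correlation of 0.91 with Pecam1 there and Dll1 one of 0.89. Notch3 was closest to Cspg4, a marker of mural cells, to Ndufa4l2 and to Fam162b (0.876, 0.870 and 0.836). Nrarp was closest to Irf1, Acsf2 and Smad6 (0.890, 0.888 and 0.859) over all libraries and to Ruvbl2, Ccdc129 and AI848285 (0.911, 0.910 and 0.904) without the 2 controls, and its correlation with Pecam1 was 0.23 in the first case and −0.60 in the second. Lfng was closest to Rassf4, Fam65b and Gda (0.943, 0.941 and 0.935) over all libraries and to 4922501L14Rik, Ppp1r42 and Kif9 (0.894, 0.892 and 0.892) without the 2 controls, and its correlation with Pecam1 was 0.80 in the first case and 0.70 in the second. Notch1 was closest to Dock1, Zfp710 and Gramd4 (0.910, 0.892 and 0.891), Notch2 to Phf2, Ep300 and Ano6 (0.906, 0.903 and 0.895), Jag1 to Ift172, Mgat5 and Vdr (0.912, 0.902 and 0.899) and Jag2 to Rnf19b, Por and Repin1 (0.915, 0.911 and 0.911).

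Beyond the 10 members, 50 further genes of the pathway were in the tables, of which 49 could be tested, and none was called by edgeR in either line or in the difference. In the Yap active line 27 of the 49 had a positive log2 fold change and 22 a negative one (median 0.05, against −0.01 over all genes), and in the Yap deleted line 20 were positive and 29 negative (median −0.05, against 0.01). Hes1, a repressor that Notch induces directly, had the smallest p of them in the active line. It held 73.6, 108, 93.2, 87.0, 88.0 and 93.4 CPM in Yap active libraries, against 70.1, 79.7, 63.6 and 62.0 CPM in controls, so that 5 of the 6 libraries were above every control, as for Nrarp (log2 fold change 0.40 ± 0.12 SE, edgeR adjusted p = 0.366). Aph1b, a subunit of gamma-secretase, followed with 10.503 to 19.2 CPM, against 14.1 to 22.9 CPM in controls (−0.60 ± 0.20 SE), and then Notch4, the receptor of endothelial cells, with 2.45 to 5.05 CPM, against 2.86 to 11.4 CPM (−0.79 ± 0.36 SE), both at an edgeR adjusted p of 0.366.

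In the Yap deleted line the smallest p among these genes belonged to Hes2, of the same family of repressors as Hes1. Hes2 held 29.0, 26.2, 16.7, 59.2 and 60.5 CPM in Yap deleted libraries, against 3.24, 4.53, 8.32 and 14.7 CPM in deleted controls. The groups did not overlap, and 2.64% of all genes tested were higher in that way. Its log2 fold change was 2.32 ± 0.55 SE (edgeR adjusted p = 0.247), the opposite direction to Nrarp. Notch4 held 4.76 to 6.34 CPM, against 84.4, 93.7, 7.05 and 6.22 CPM in deleted controls (−3.09 ± 0.79 SE), a pattern like that of Dll4 and Mfng. Fbxw7, which marks intracellular Notch for breakdown, held 18.5 to 20.5 CPM, against 21.4 to 36.3 CPM (−0.57 ± 0.17 SE), also without overlap. Of all genes tested 1.25% were lower in that way, and over all 19 libraries Fbxw7 followed Dll1 (r = 0.975). Between the lines Hes2 (−2.14 ± 0.77 SE), Notch4 (2.29 ± 0.87 SE) and Aph1a (0.39 ± 0.15 SE) had the smallest p of these genes, each at an edgeR adjusted p of 0.732.

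Accessible regions offered a readout of the members apart from RNA. The authors' lists name the regions that changed in a line, each with a score and its nearest gene but no replicate values, so nothing was tested. The list of regions opened in Yap active cells named 5 of the 10 members (50.0%), against 19.3% of all genes in the count table. That share includes genes at low counts, while all 10 members passed the filter. Of the 50 further pathway genes the same list named 17. The 5 members were Jag1 with 3 regions, Notch2 with 2, and Jag2, Lfng and Nrarp with 1 each. Regions closed in Yap active cells named none of the members, against 4.98% of genes, and regions opened in Yap deleted cells named none, against 2.04%. Those closed in Yap deleted cells named Jag1 with 1 region, against 2.41% of genes. The list of regions closed in Yap active cells held 1392 regions and 9793 blank lines, while the other lists held 0 blank lines. Whether regions are missing from that list is not known.

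Jag1 carried the highest-scoring of these regions, at 297 kb (chr2:137412895-137414360, score 116.65) and 109 kb (chr2:137224732-137225877, score 69.35) upstream of its start in intergenic sequence, and another in its second intron (chr2:137109202-137110464, score 32.65). Its closed region of the Yap deleted line lay 58.9 kb downstream of the start (chr2:137056837-137058322, score 45.05). That is past the end of the Jag1 gene (chr2:137081451-137116520, minus strand), and the annotation there is an intron of a transcript other than that of Jag1. Jag1 RNA passed the test in neither line. Jag2 had an opened region over its start, annotated to the second exon (chr12:112928256-112929727, score 41.9), Lfng one in its first intron (chr5:140610545-140611484, score 31.3), and Notch2 a pair in its second intron (chr3:98056571-98057438, score 26.8, and chr3:98061725-98062402, score 12.55). The median score of that list was 42.8, and 2 of the 8 regions, both of Jag1, were in its higher-scoring part. The Nrarp region, whose first bases are the capitals of the promoter printed above, ranked 4394 of 6017 by score. Nrarp had the largest RNA difference among these 5 genes in the active line, which did not pass edgeR's test. A link between the region and the RNA was not tested.

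**Figure D5:**
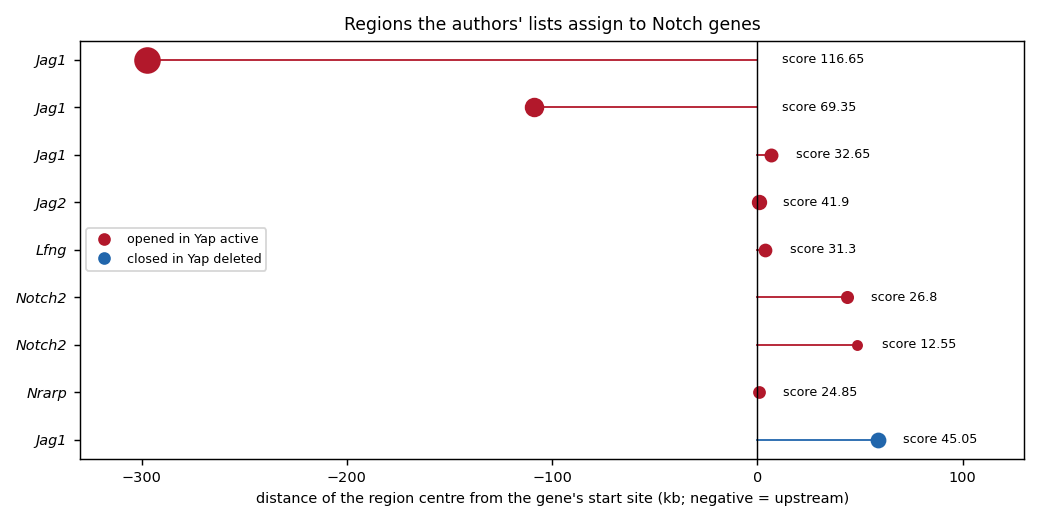
Distance in kb of each listed accessible region from the start site of the Notch gene the authors' lists assign to it (negative is upstream), in red for regions opened in Yap active cells and in blue for the region closed in Yap deleted cells; points grow with the authors' score. The regions of Jag2, Nrarp and Lfng lie within 4 kb of the start, and those of Jag1 reach 297 kb upstream.

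Peak lists were at hand for Yap active cells (2 lists) and their controls (2 lists). In the first Yap active list, peaks overlapped the promoter windows of Notch1, Notch2, Notch3, Dll1, Jag1, Nrarp and Lfng, 7 of the 9 members with a window, where 44.4% of all genes with a window had one. In the second list only Jag1 had one (22.4% of genes), and in both control lists none of the members did (5.25% and 5.03%). The fold enrichment the authors give for the member peaks was 1.74 to 2.61, and their −log10 q was at most 0.160, below any usual threshold. The Nrarp opened region itself held no peak of any of the 4 lists.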

How the data were processed

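RNA was measured in 19 libraries, and the gene counts were deposited by the authors as a table for each line (unit counts, not normalised, per the file headers). Per the submitters' processing notes, the tools included Bowtie2, Trim Galore, HOMER, Cufflinks and DESeq, with the build mm10; their order is not given. The authors' region lists hold a score, an annotation and a distance to the start site per region, per the file headers, on a score scale that is not explained. Their peak lists hold a fold enrichment and a −log10 q per peak as deposited, and which libraries each list pools is not stated.

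Counts were scaled by TMM within each table and tested with edgeR 4.0.16 (quasi-likelihood, robust, filterByExpr) in R 4.3.3, with Benjamini-Hochberg adjustment over all genes tested and a threshold of 0.05. DESeq2 1.42.0 and limma-voom (limma 3.58.1) were alternatives, as were RLE scaling, no filter beyond 1 count, a replicate block, log2 Pecam1 CPM or the library set as a covariate, and leaving out libraries. The difference between the lines was a contrast over all 19 libraries. Likeness between genes used log2 (CPM + 0.5), centred per table, for genes with a mean of at least 1 CPM. The tests were checked on simulated data. Every pair of libraries within a group differed by more than sampling noise. Promoter windows and gene positions came from RefSeq, GRCm38.p6. The peak lists' −log10 p column was not used here.

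Named genes were all 10 members, Pecam1, the targeted genes, the 3 other pathway genes with the smallest p per comparison and the 3 genes most like each member. The members and lists were chosen with earlier results of these data known.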

Additional observations from a re-analysis of the deposited data

Results flagged for a closer look

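Of 40 sets of a member's values in a group, 4 had a library far from the others by Dixon's criterion, which chance meets in about 1 set in 20. Notch2 held 353 CPM in Yap active 4, where the next highest library of the group held 253 CPM. Dll1 held 4.70 CPM in Yap active 1, against 2.04 CPM in the next highest, and Mfng held 1.21 CPM in the same library, against 0.502 CPM in the next. That library also held the highest Pecam1 of its group (14.6 CPM) and lacked the Esr1 signal of the others. Lfng held 30.7 CPM in Yap deleted 4, where the next highest library held 21.5 CPM.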

How the results depend on the processing

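Over all members and alternatives 601 results were labelled the same, 35 reversed and 15 became significant. Of those labelled the same, 1 was the count of members with the Rbpj core, and the rest kept their direction and side of the threshold. The cause of each reversal was not tested. In the Yap active line, with Pecam1 as a covariate, the log2 fold changes were −0.072 for Notch2, 0.10 for Dll1, 0.22 for Lfng and 0.83 for Mfng. With the library set as a covariate they were −0.10 for Notch2, 0.12 for Dll1, 0.28 for Lfng and 0.18 for Mfng, and with the set and without Yap active 1 and active control 2 they were −0.29 for Notch2, 0.27 for Lfng and 1.63 for Mfng. Dll4 was −0.043 by limma-voom and −0.11 with the replicate block. In the Yap deleted line Notch1 was −0.0093 by limma-voom, −0.023 with the replicate block and −0.0011 without control 2. Jag1 was −0.010 with Pecam1 as a covariate and −0.078 without controls 1 and 2. Jag2 was −0.015 by limma-voom, −0.27 with Pecam1, −0.31 without controls 1 and 2 and −0.090 without control 2. Between the lines Notch2 was −0.18 with the set and without the same 2 active libraries, and without deleted controls 1 and 2 Dll1 was −0.13 and Mfng −1.05.

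Leaving out each library in turn moved Dll4 from −0.0021 to 0.32 and Lfng from −0.32 to 0.0067 in the active line, and Notch1 from −0.062 to 0.15, Notch2 from −0.28 to 0.012 and Jag2 from −0.090 to 0.17 in the deleted line. Genes called numbered 18 by DESeq2, 8871 by limma-voom, 13 without Yap active 1 and active control 2 and 4 with the set as well in the active line (0 to 2 leaving out a library). In the deleted line they numbered 792 by DESeq2, 0 by limma-voom, 0 with the replicate block and 0 to 4 leaving out a library, and between the lines 17, 21 and 0 to 3. The replicate numbers did not pair the samples (same-number correlations 0.02 to 0.58 in the active line and −0.26 to 0.48 in the deleted line). Of the 8 regions opened at members, 2 were in the higher-scoring part of the list, and 0 regions closed in Yap deleted cells lay within 50 kb of a member's start. Low counts limit Mfng in particular, with 3 to 167 reads a library in the Yap active table.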
